A study of Mus musculus with 20 samples.

Results

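The genes described here are 7 chemokine ligands that T cells make: Ccl3, Ccl4, Ccl5, Xcl1, Ccl1, Ccl20 and Cxcl3. They were picked by symbol from the 39179 gene IDs counted in each of 20 RNA libraries of mouse CD4 T cells. The choice was made with earlier results of these data known. All 7 passed the filter on low counts in both parts of the series. The study set IL-17-producing helper T cells (Th17 cells) that lack Il6ra, which encodes the ligand-binding chain for IL-6, against cells that have it. All mice were C57BL/6, and the T cells of both genotypes carried an IL-17F/Thy1.1 reporter, in which Thy1.1 marks cells that express Il17f.

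In the transfer part, CD4 T cells of Il6ra-/- Il17f/Thy1.1 mice (CD45.2) and of wild-type Il17f/Thy1.1 mice (CD45.1) were cultured for 6 days as Th17 cells with anti-CD3, antibodies to IFN-gamma and IL-4, TGF-beta at 2.5 ng/ml, hyper-IL-6 at 20 ng/ml and irradiated splenic cells. Hyper-IL-6 is IL-6 fused to its soluble receptor, which acts on cells that lack their own IL-6 receptor. Colon libraries (3 Il6ra-/-, 3 wild type, from pooled animals) held live CD4+ TCRb+ cells sorted by CD45 allele 4 weeks after 200000 cells of each genotype had been placed together into Rag1-/- hosts, which lack T and B cells of their own. Libraries before transfer (2 Il6ra-/-, 2 wild type) held sorted Thy1.1+ cells, so the gate before transfer selected reporter-positive cells and the gate in the colon did not. The CD45 allele differed with the genotype and cannot be told apart from it.

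In the culture part, cells from spleen and lymph nodes of Il6ra-/- and wild-type mice, heterozygous for the reporter, were cultured for 6 days with irradiated antigen-presenting cells and TGF-beta at 2.5 ng/ml. The groups, of 2 libraries each, were Il6ra-/- cells with hyper-IL-6 at 63 ng/ml, wild-type cells with hyper-IL-6 at 63 ng/ml, wild-type cells with IL-6 at 20 ng/ml, naive Il6ra-/- cells and naive wild-type cells. The labels give 4 h of PMA and ionomycin, a direct stimulus of T cell signalling, for all 10 of these libraries, naive ones included. No such stimulus is given for the transfer part, and the parts were normalised and tested separately.

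Chemokines are small secreted proteins that draw cells bearing the matching G-protein-coupled receptor along a gradient, and T cells use them to bring other leukocytes into inflamed tissue. Ccl3, Ccl4 and Ccl5 are known from cytotoxic and Th1 cells, and Ccl3 and Ccl5 bind Ccr1. Xcl1 binds Xcr1 on cross-presenting dendritic cells, Ccl1 binds Ccr8, Ccl20 binds Ccr6, which Th17 cells carry themselves, and Cxcl3 binds Cxcr2 on neutrophils.

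On GRCm38, 4 of the genes lie on chromosome 11: Ccl5 (ENSMUSG00000035042, chr11:83525778-83530518, minus strand), Ccl3 (ENSMUSG00000000982, chr11:83647844-83649355, minus strand), Ccl4 (ENSMUSG00000018930, chr11:83662584-83664683, plus strand) and Ccl1 (ENSMUSG00000020702, chr11:82176657-82305690, minus strand). Ccl20 (ENSMUSG00000026166, chr1:83116766-83119167, plus strand) and Xcl1 (ENSMUSG00000026573, chr1:164931644-164935527, minus strand) lie on chromosome 1, and Cxcl3 (ENSMUSG00000029379, chr5:90786103-90789600, plus strand) on chromosome 5. All are protein-coding, and the counts cover their exons. Xcl1 overlaps Gm20743 on the opposite strand, and with no strand setting given in the sources used here its counts are uncertain.

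Each library held 12718633 to 23745060 counts in genes in the transfer part and 20160774 to 46848016 in the other. A level below is a CPM, a gene's count scaled to the library's total after TMM scaling within the part, and a group is given by its mean ± SD. Log2 fold changes carry their SE and come from edgeR's quasi-likelihood test, with p adjusted over all genes, and a gene passes at an adjusted p under 0.05. Since separate animals are not named for the libraries of a group, a p-value here covers only their spread, which may be technical. The Il6ra gene itself was counted at 31.8 to 213 CPM in the Il6ra-/- libraries of the culture part and 2.53 to 123 CPM in those of the transfer part, so its counts do not check the labels, which do not give the deleted stretch. In wild-type library 1 before transfer, ribosomal protein genes took 3.19% of counts, against 1.01% to 1.54% in the other 9 transfer libraries. CD4 T cell markers were high in every group (10 of 10 above 1 CPM, summed CPM of 2560 or more).

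Which ligand led the set differed by setting when levels were put per kilobase of exon, the scale on which genes can be compared. In the colon, Ccl5 took a mean of 75.9% of the summed ligand level per kilobase in Il6ra-/- cells and 67.1% in wild-type cells, followed by Ccl4 with 11.2% in Il6ra-/- cells. In wild-type colon cells Ccl4 (10.3% to 11.8% per library) and Xcl1 (5.5% to 17.1%) could not be ordered. Before transfer, Ccl20 came first with 52.0% in Il6ra-/- and 45.3% in wild-type cells, and Ccl4 second with 26.4% and 35.1%, though in 1 wild-type library Ccl4 led with 50.4% over Ccl20 with 21.3%. In the culture part Ccl20 and Xcl1 led together: Ccl20 took 36.8% and Xcl1 32.6% in Il6ra-/- cells with hyper-IL-6, against 45.3% and 31.3% in wild-type cells with hyper-IL-6 and 38.8% and 34.2% with IL-6. The summed level per kilobase was 697 in Il6ra-/- and 308 in wild-type colon cells, 142 and 178 before transfer, 590, 534 and 540 in the 3 cultured groups, and 6.31 and 5.78 in naive cells. Ccl1 has a long gene model (2369 bases of exon), which lowers its value on this scale. In wild-type cells with hyper-IL-6, Ccl20 led in both libraries, with 43.5% and 47.1% against 30.1% and 32.5% for Xcl1. The shares of Ccl20 and Xcl1 overlapped in Il6ra-/- cells with hyper-IL-6 (33.2% to 40.4% and 23.6% to 41.6%) and in wild-type cells with IL-6 (33.0% to 44.7% and 23.2% to 45.2%), so they could not be ordered there.

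**Figure D1:**
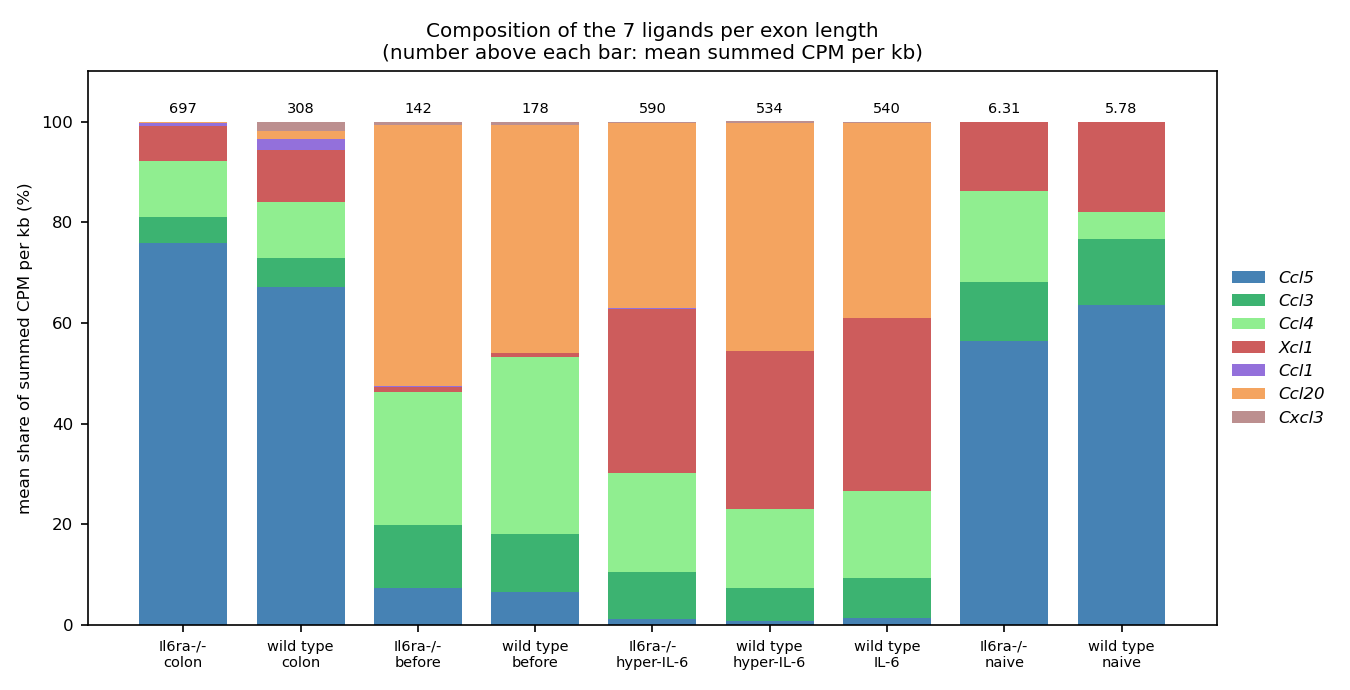
Mean share of each ligand in the summed CPM per kilobase of the 7 ligands, in percent, for the 9 groups, with the mean summed CPM per kilobase above each bar. Ccl5 fills 75.9% and 67.1% of the colon bars, Ccl20 is the largest part before transfer, and Ccl20 and Xcl1 fill most of the 3 cultured bars.

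**Figure D2:**
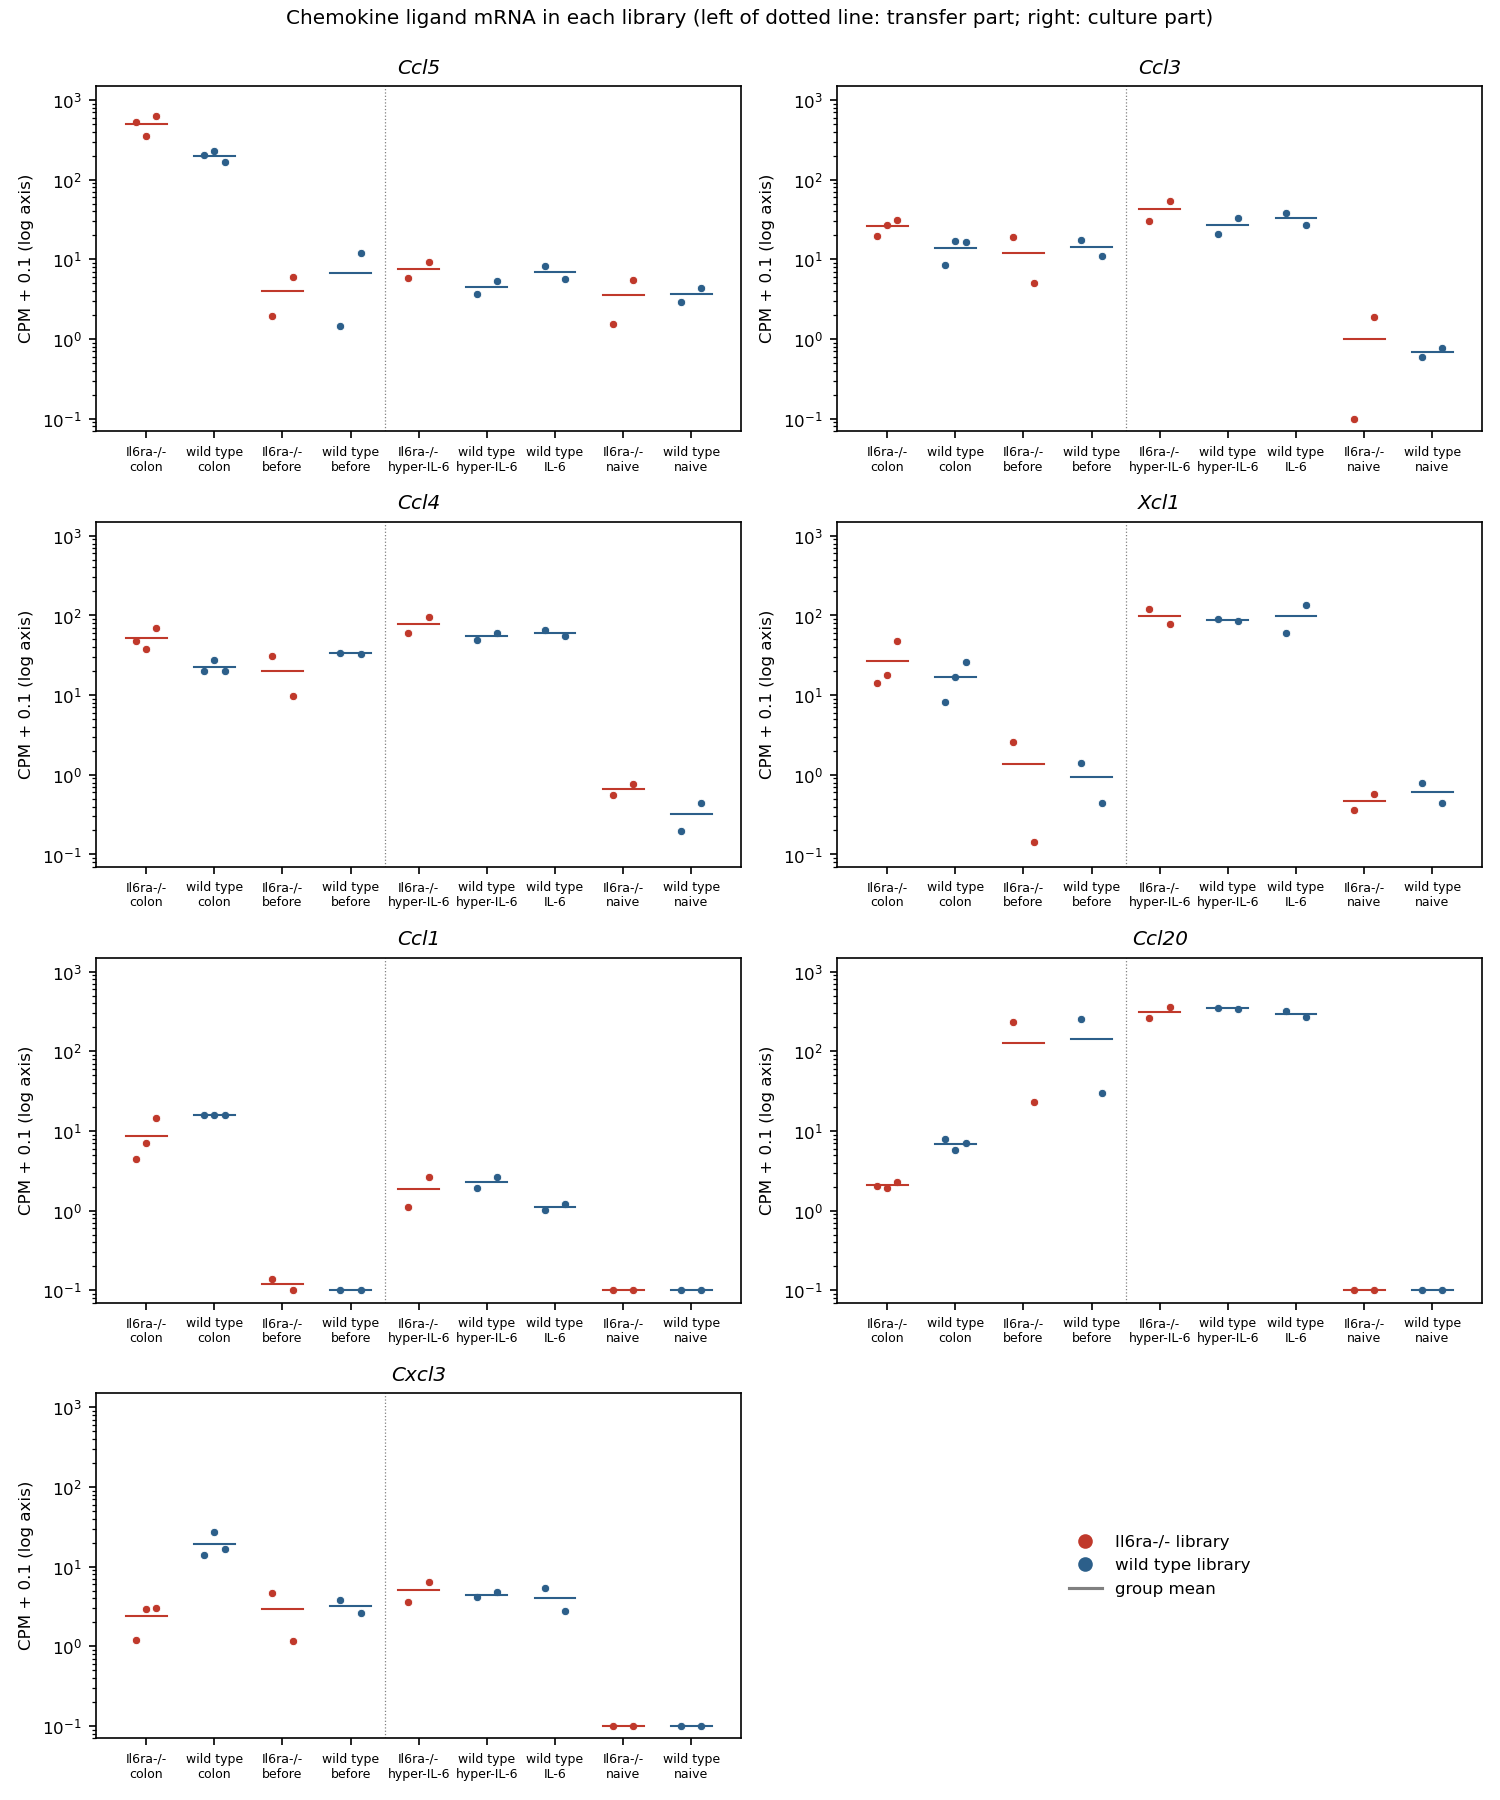
CPM of each ligand in each of the 20 libraries, as CPM + 0.1 on a log axis, with Il6ra-/- libraries in red, wild-type libraries in blue and the group mean as a line; the dotted line separates the transfer part from the culture part. Ccl20, Ccl1 and Cxcl3 sit at 0 CPM in all 4 naive libraries, and Ccl20 before transfer splits into libraries near 240 CPM and libraries near 26 CPM in both genotypes.

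Cultured Th17 cells were first set against naive T cells. This is a contrast of 6 days of culture only if both had the stimulus that the labels give. Whether the naive libraries had it was not tested. With edgeR, 6 of the 7 ligands rose in each of the 3 cultured groups, and Ccl5 did not pass. Of all genes tested, 72.0% passed in Il6ra-/- cells with hyper-IL-6, 70.3% in wild-type cells with hyper-IL-6 and 70.6% in wild-type cells with IL-6, and 37.5%, 36.8% and 37.0% of genes rose, so the count of 6 stands against a high background. The median log2 fold change of the ligands was 8.01, 7.90 and 8.03 in these 3 comparisons, against 0.04, 0.04 and 0.05 over all genes tested, with 3 ligands fitted against groups without a count; with these 3 at their lower bound, the medians were 5.41, 5.51 and 5.79.

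Ccl4, an attractant made by activated T cells, was at 59.8 and 94.9 CPM in Il6ra-/- cells with hyper-IL-6, 49.6 and 60.4 in wild-type cells with hyper-IL-6 and 65.9 and 55.7 with IL-6, against 0.465 and 0.665 CPM in naive Il6ra-/- and 0.0977 and 0.339 in naive wild-type cells. Every cultured library was far above every naive one, with log2 fold changes of 7.06 ± 0.34 (adjusted p = 1.47e-08), 7.90 ± 0.39 (adjusted p = 1.91e-08) and 8.04 ± 0.39 (adjusted p = 1.62e-08). Ccl3 was at 30.4 and 54.7, 20.7 and 33.3, and 38.2 and 27.3 CPM in the cultured groups in the same order, against 0 and 1.80 CPM in naive Il6ra-/- and 0.489 and 0.678 in naive wild-type cells. Its log2 fold changes were 5.41 ± 0.64 (adjusted p = 1.95e-05), 5.51 ± 0.70 (adjusted p = 3.50e-05) and 5.79 ± 0.70 (adjusted p = 2.31e-05). All cultured libraries lay above all naive ones, of which naive Il6ra-/- library 1 had no Ccl3 count. Without naive Il6ra-/- library 2 the fitted Il6ra-/- value was 13.46 (adjusted p = 9.97e-06), set only against the library with no count and thus no measure of size, and without library 1 it was 4.58.

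Ccl5 was the exception, as it did not pass in any of the 3 comparisons. Il6ra-/- cells with hyper-IL-6 had 5.76 and 9.04 CPM, wild-type cells with hyper-IL-6 3.57 and 5.27, and wild-type cells with IL-6 8.12 and 5.51, against 1.45 and 5.44 CPM in naive Il6ra-/- and 2.83 and 4.28 in naive wild-type cells. The log2 fold changes were 1.07 ± 0.49 (adjusted p = 0.0692), 0.31 ± 0.49 (adjusted p = 0.596) and 0.94 ± 0.49 (adjusted p = 0.109). In Il6ra-/- cells it passed in DESeq2 (adjusted p = 0.0409), without a filter on low counts (1.09, adjusted p = 0.000159) and without naive Il6ra-/- library 2 (2.35, adjusted p = 0.00229). With IL-6 it passed without a filter (0.98, adjusted p = 0.000820) and with the compared groups only (0.91, adjusted p = 0.0411).

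Xcl1 was under 1 CPM in naive cells and among the leading ligands after culture. It was at 119 and 78.0 CPM in Il6ra-/- cells with hyper-IL-6, 89.5 and 85.3 in wild-type cells with hyper-IL-6 and 60.7 and 137 with IL-6, against 0.258 and 0.469 CPM in naive Il6ra-/- and 0.684 and 0.339 in naive wild-type cells. The 2 IL-6 libraries differed from each other more than the group means did. Log2 fold changes were 8.01 ± 0.55 (adjusted p = 2.17e-07), 7.44 ± 0.53 (adjusted p = 3.08e-07) and 7.61 ± 0.53 (adjusted p = 2.57e-07).

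Ccl1, Ccl20 and Cxcl3 had no count in any of the 4 naive libraries, where a count of 0 allows 3 counts per library, or a mean of 0.136 CPM in Il6ra-/- and 0.137 CPM in wild-type cells. Ccl20 reached 259 and 363 CPM in Il6ra-/- cells with hyper-IL-6, 353 and 335 in wild-type cells with hyper-IL-6 and 317 and 272 with IL-6. That is at least 2280-fold, 2510-fold and 2150-fold higher than in naive cells. Cxcl3 was at 3.55 and 6.29, 4.03 and 4.64, and 5.28 and 2.67 CPM, at least 36.1-fold, 31.6-fold and 29.0-fold higher. Ccl1 was at 1.01 and 2.51, 1.83 and 2.50, and 0.925 and 1.10 CPM, at least 12.9-fold, 15.8-fold and 7.39-fold higher. The edgeR adjusted p was 5.47e-09, 5.29e-09 and 5.83e-09 for Ccl20, 2.39e-05, 3.18e-05 and 3.63e-05 for Cxcl3, and 0.000187, 0.000136 and 0.000576 for Ccl1.

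RefSeq gives promoter windows for 5 of the 7 genes (Ccl1, Ccl3, Ccl20, Xcl1 and Cxcl3; GRCm38.p6). The 250 bases before the RefSeq transcription start are shown for the 3 genes that had no count in naive cells and, for comparison, for Ccl3, which had some. They span chr11:82179813-82180062 on the minus strand for Ccl1, chr1:83116516-83116765 on the plus strand for Ccl20, chr5:90785851-90786100 on the plus strand for Cxcl3 and chr11:83649379-83649628 on the minus strand for Ccl3. The RefSeq start of Ccl1 lies inside the longer GENCODE gene model given above, so its window is not upstream of that model. Capitals mark matches on either strand to the letters searched for NF-kB: GGG, then any 3 bases, then TTCC.
Ccl1: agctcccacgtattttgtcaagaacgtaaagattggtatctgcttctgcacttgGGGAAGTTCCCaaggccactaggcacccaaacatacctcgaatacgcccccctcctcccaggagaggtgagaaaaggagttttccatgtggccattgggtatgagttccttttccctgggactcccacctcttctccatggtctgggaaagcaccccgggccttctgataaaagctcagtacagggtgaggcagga
Ccl20: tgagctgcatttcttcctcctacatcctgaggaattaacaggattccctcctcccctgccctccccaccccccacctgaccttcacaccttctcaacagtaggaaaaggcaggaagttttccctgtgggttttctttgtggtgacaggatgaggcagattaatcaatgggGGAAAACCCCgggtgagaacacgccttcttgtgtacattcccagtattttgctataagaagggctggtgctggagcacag
Cxcl3: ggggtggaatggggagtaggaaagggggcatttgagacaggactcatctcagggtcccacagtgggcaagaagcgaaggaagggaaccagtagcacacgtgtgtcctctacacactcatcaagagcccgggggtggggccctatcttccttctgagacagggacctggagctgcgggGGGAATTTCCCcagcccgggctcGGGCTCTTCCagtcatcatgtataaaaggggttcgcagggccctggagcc
Ccl3: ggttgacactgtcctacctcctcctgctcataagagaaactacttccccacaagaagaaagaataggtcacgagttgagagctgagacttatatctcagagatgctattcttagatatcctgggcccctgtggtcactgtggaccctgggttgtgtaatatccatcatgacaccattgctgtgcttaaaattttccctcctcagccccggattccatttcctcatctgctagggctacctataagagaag
The NF-kB letters were found in 3 of the 5 windows (Ccl1, Ccl20 and Cxcl3) and in 4.65% of 32851 mouse windows of the same length. In Cxcl3 and in Ccl1 a match on one strand overlaps one on the other, which makes a single longer run of capitals. The AP-1 letters TGANTCA (6.75% of windows) and the STAT letters TTCNNNGAA (7.02%) were in none of the 5. The T-box letters GGTGTGA (3.33%) were in Ccl20 and Xcl1, and the NFAT letters GGAAA (55.6%) in all 5. In Ccl20 and Cxcl3 an NFAT match lies inside an NF-kB match. These are letter matches in one window only, and binding was not measured.

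Among receptors of these ligands, Ccr6 and Ccr1 rose and Ccrl2, an atypical receptor, fell in all 3 cultured groups, of 5 receptor genes tested. Ccr6 was at 32.6 ± 15.8 CPM in Il6ra-/- cells with hyper-IL-6, 31.0 ± 2.11 in wild-type cells with hyper-IL-6 and 39.3 ± 15.3 with IL-6, against 0.481 ± 0.315 and 1.06 ± 0.182 CPM in naive Il6ra-/- and wild-type cells (n = 2 each). For Ccr6, the receptor of Ccl20, the adjusted p was 1.32e-06, 3.14e-06 and 1.86e-06 in edgeR in these 3 comparisons. Ccr8 (3.78, 2.16 and 3.36 CPM cultured, 2.63 and 1.98 naive) and Ccr3 (at most 0.219 CPM) did not pass, and Xcr1, Cxcr2, Ackr1 and Ackr2 were too low to test. Of 9 other chemokine ligands tested from a list of 30, 4, 4 and 5 rose and 1 fell in the 3 comparisons. In Il6ra-/- cells with hyper-IL-6, the largest log2 fold changes among those counted in naive cells were those of Cxcl16 (7.05 ± 0.58), Cxcl2 (5.11 ± 0.96) and Cxcl10 (4.18 ± 0.27). The first 2 sizes are uncertain, as the naive Il6ra-/- libraries held 2 counts of Cxcl16 and 1 of Cxcl2 in all. In wild-type cells with hyper-IL-6 the value of Cxcl16 was 5.46 ± 0.48.

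Within the cultured cells, no ligand passed between genotypes or between the forms of IL-6. Between Il6ra-/- and wild-type cells with hyper-IL-6, 0 of 7 passed in edgeR (1 at an unadjusted p under 0.05, Ccl4; 0 in DESeq2), against 0.0% of all genes. Ccl4 averaged 77.3 ± 24.8 CPM in Il6ra-/- and 55.0 ± 7.61 CPM in wild-type cells, and Ccl20 311 ± 73.8 CPM in Il6ra-/- and 344 ± 12.8 CPM in wild-type cells. Between hyper-IL-6 and IL-6 in wild-type cells, 0 of 7 passed in edgeR (0 at an unadjusted p under 0.05, 0 in DESeq2), and 0.0% of all genes. Ccl1 had the largest log2 difference of the 7, with 2.17 ± 0.473 CPM with hyper-IL-6 and 1.01 ± 0.121 with IL-6. Between naive Il6ra-/- and naive wild-type cells, 0 of 7 passed (0 at an unadjusted p under 0.05, 0 in DESeq2), against 0.0067% of all genes. For the difference between genotypes in the change with culture, 0 of 7 passed (0 at an unadjusted p under 0.05, 0 in DESeq2), and 0.0% of all genes.

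Before transfer, Ccl20 and Ccl5 differed more between experiments than between genotypes. Ccl20 was at 230 CPM (experiment 1) and 22.8 CPM (experiment 2) in Il6ra-/- cells and at 252 and 29.9 CPM in wild-type cells, so the libraries of experiment 1 were 10.1-fold and 8.43-fold above those of experiment 2. Ccl5 ran the other way, with 1.86 and 5.85 CPM in Il6ra-/- cells and 1.36 and 11.9 CPM in wild-type cells. Both genotypes showed the same order of experiments for these 2 genes. Ccl4 was at 30.6 and 9.65 CPM in Il6ra-/- cells and 33.6 and 32.9 in wild-type cells, and Ccl3 at 18.8 and 4.91 CPM in Il6ra-/- and 17.5 and 10.9 CPM in wild-type cells. Cxcl3 (4.54 and 1.07 CPM in Il6ra-/-, 3.66 and 2.53 in wild-type cells), Xcl1 (2.49 and 0.0427, 1.31 and 0.347) and Ccl1 (1 count in all 4 libraries) were low. Of the 7 ligands, 0 passed between genotypes in edgeR (0 at an unadjusted p under 0.05, 0 in DESeq2), against 0.00703% of all genes. Within experiment 2 alone, with 1 library per genotype (the wild-type one being library 1, with the higher ribosomal share) and the spread taken from the colon libraries, Ccl3 (-1.12 ± 0.28, adjusted p = 0.0356) and Ccl4 (-1.74 ± 0.42, adjusted p = 0.0318) passed, 2 of 7 against 15.1% of all genes.

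Colon cells were then compared with cells before transfer, within each genotype. In Il6ra-/- cells 4 ligands rose (Ccl5, Ccl4, Xcl1 and Ccl1) and Ccl20 fell, and in wild-type cells 4 rose (Ccl5, Xcl1, Ccl1 and Cxcl3) and Ccl20 fell. Of all genes, 27.0% passed in Il6ra-/- cells (13.8% higher, 13.2% lower) and 32.9% in wild-type cells (17.1% higher, 15.8% lower). The median log2 fold change of the 7 was 1.36 in Il6ra-/- and 2.63 in wild-type cells, against 0.0 and -0.02 over all genes tested. These medians are the values of Ccl4 and Cxcl3, and do not describe the set, as the ligands went both ways. The sort gate, the tissue and the time differed together between the groups and cannot be told apart.

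Ccl5 was at 533, 355 and 632 CPM in Il6ra-/- colon cells, against 1.86 and 5.85 CPM before transfer, a log2 fold change of 7.04 ± 0.91 (adjusted p = 0.000305). In wild-type cells it was at 202, 228 and 166 CPM in the colon, against 1.36 and 11.9 CPM before, a log2 fold change of 4.90 ± 0.81 (adjusted p = 0.00141). All colon libraries were above all libraries before transfer. Within the experiments the log2 ratio was 8.16 and 6.40 in Il6ra-/- cells and 7.21 and 4.05 in wild-type cells.

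Ccl4, close kin of Ccl3, passed in Il6ra-/- cells and missed the threshold in wild-type cells. In Il6ra-/- cells it was at 48.1, 38.0 and 68.9 CPM in the colon, against 30.6 and 9.65 CPM before transfer (1.36 ± 0.43, adjusted p = 0.0384). Wild-type cells had 20.2, 27.5 and 19.8 CPM in the colon, against 33.6 and 32.9 CPM before (-0.56 ± 0.41, adjusted p = 0.306). The Il6ra-/- value was 2.39 (adjusted p = 0.00327) without Il6ra-/- library 0 before transfer. The call in Il6ra-/- cells was lost without Il6ra-/- library 1 before transfer (0.75, adjusted p = 0.170) and without Il6ra-/- colon library 0 (1.41, adjusted p = 0.0665) or 2 (1.10, adjusted p = 0.124), and with the compared groups only (1.31, adjusted p = 0.0902). Ccl3 did not pass in either genotype, at 19.8, 27.3 and 31.0 CPM in Il6ra-/- colon cells (1.13 ± 0.52, adjusted p = 0.134) and 8.44, 17.0 and 16.4 CPM in wild-type colon cells (-0.02 ± 0.50, adjusted p = 0.977). Its Il6ra-/- log2 ratio was 0.07 in experiment 1 and 2.57 in experiment 2, and the change passed without Il6ra-/- library 0 before transfer (2.38, adjusted p = 0.0146).

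Xcl1 was at 14.3, 17.7 and 48.3 CPM in Il6ra-/- colon cells (4.38 ± 1.11 over before transfer, adjusted p = 0.0142) and at 8.16, 16.6 and 25.9 CPM in wild-type colon cells (4.32 ± 1.14, adjusted p = 0.0152). Ccl1 was at 4.33, 6.92 and 14.5 CPM in Il6ra-/- colon cells, against a single count before transfer, a ratio of pooled counts of 414 (95% interval 73.8 to 16400, counting error only). In wild-type colon cells Ccl1 was at 15.7, 15.5 and 15.6 CPM, at least 108-fold above the 0.145 CPM that a count of 0 allows. Every colon library was above every library before transfer for both genes. Within the experiments Xcl1 was 5.74-fold higher (experiment 1, Il6ra-/-) and 6.23-fold and 61.2-fold higher (wild type). In experiment 2 Il6ra-/- cells Xcl1 averaged 33.0 CPM in the colon, against 0.0427 CPM before transfer, which is 1 count. The Il6ra-/- value was 9.05 (adjusted p = 0.00530) without Il6ra-/- library 0 before transfer, which leaves that 1 count as its base, and 3.42 (adjusted p = 0.0433) without library 1. In wild-type cells the Xcl1 call was lost without wild-type library 1 before transfer (3.67, adjusted p = 0.0951).

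Ccl20 was the ligand that fell, in both genotypes. It was at 1.91, 1.81 and 2.19 CPM in Il6ra-/- colon cells, against 230 and 22.8 CPM before transfer (-6.0 ± 1.0, adjusted p = 0.00148). In wild-type colon cells it was at 7.80, 5.70 and 6.99 CPM, against 252 and 29.9 CPM (-4.37 ± 0.91, adjusted p = 0.00490). No colon library reached the lowest library before transfer. The log2 ratio was -6.91 in experiment 1 and -3.51 in experiment 2 in Il6ra-/- cells, and -5.01 and -2.24 in wild-type cells. Without library 0 before transfer, the change was -3.56 (adjusted p = 0.0149) in Il6ra-/- cells and -2.12 (adjusted p = 0.0584) in wild-type cells.

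Cxcl3 rose in wild-type cells, to 13.7, 27.2 and 16.5 CPM in the colon, against 3.66 and 2.53 CPM before transfer (2.63 ± 0.65, adjusted p = 0.0111). Il6ra-/- cells had 1.10, 2.88 and 2.94 CPM in the colon, against 4.54 and 1.07 CPM before (-0.30 ± 0.61, adjusted p = 0.770). The Il6ra-/- value changed sign between the experiments, at -2.05 and 1.44 on the log2 scale. The wild-type call was lost without wild-type library 1 before transfer (2.37, adjusted p = 0.0738), in which ribosomal protein genes took 3.19% of counts, against 1.01% to 1.54% in the other libraries of the transfer part. When the difference between genotypes in the change from before transfer to colon was tested, 0 of 7 passed in edgeR (3 at an unadjusted p under 0.05, which were Ccl4, Ccl5 and Cxcl3; 0 in DESeq2), against 0.0% of all genes. Within experiment 2 alone Ccl3, Ccl4 and Ccl5 passed, 3 of 7 against 11.5% of all genes. That value rests on 1 library per genotype before transfer, of which the wild-type one is library 1, and takes its spread from the colon libraries.

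Markers of several other cell types, though not of B cells, were also higher in the colon samples. In Il6ra-/- cells 11 and in wild-type cells 13 of 16 myeloid markers rose, as did 4 and 5 of 7 neutrophil markers and 8 and 9 of 12 epithelial markers and 5 of 5 tested erythroid markers in both. Of 8 tested markers of CD8, NK and gamma-delta T cells, 7 rose in Il6ra-/- cells, and 5 rose and 1 fell in wild-type cells. Their summed level was 456 to 589 CPM in Il6ra-/- colon libraries, against 47.6 to 53.3 CPM before transfer, and 258 to 358 CPM in wild-type colon libraries, against 57.1 to 110 CPM. Of 10 stromal and endothelial markers, 6 rose in Il6ra-/- cells, and 5 rose and 1 fell in wild-type cells. They summed to 121 to 165 CPM in Il6ra-/- colon libraries, against 143 to 151 CPM before transfer. In wild-type libraries the sums were 133 to 190 and 131 to 141 CPM. Among 4 tested B cell markers, 0 rose and 1 fell in each genotype. Among 5 tested dendritic and antigen-presenting cell markers, 3 rose in Il6ra-/- cells, and 3 rose and 2 fell in wild-type cells. In summed CPM, myeloid markers ran from 138 to 535 in Il6ra-/- and from 185 to 554 in wild-type colon libraries, against 23.8 to 92.1 and 30.2 to 60.4 before transfer. Myeloid, epithelial and other T and NK cells also make several of these ligands, and the part of those cells in the rises was not tested. Of 14 other ligands tested, 6 rose and 1 fell in Il6ra-/- cells and 7 rose and 1 fell in wild-type cells, among them Cxcl9 (8.81 against 0.155 CPM in Il6ra-/-, 13.2 against 0.0704 CPM in wild-type cells), Cxcl12, Cxcl5 and Cxcl2, while Ccl22 fell. In bulk RNA, a change in the share of cells that make a ligand and a change in RNA per cell cannot be told apart.

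Several receptors were higher in the colon. In Il6ra-/- cells 4 of 6 tested rose (Ccr1, Ccr3, Ccr8 and Ccrl2) and in wild-type cells 3 (Ccr1, Ccr8 and Ccrl2). Ccr8, the receptor of Ccl1, was at 39.3 ± 10.6 CPM in Il6ra-/- colon cells, against 7.27 ± 3.28 before transfer (2.43 ± 0.40, adjusted p = 0.00147), and at 42.4 ± 7.55 CPM in wild-type colon cells, against 7.77 ± 3.56 (2.45 ± 0.40, adjusted p = 0.00138). Of 23 transcription factors and regulators, 10 rose and 2 fell in Il6ra-/- cells and 12 rose and 2 fell in wild-type cells. Tbx21, the Th1 factor, had one of the largest changes, at 151 against 3.39 CPM in Il6ra-/- cells (5.47 ± 0.63, adjusted p = 0.000154) and 85.3 against 3.43 CPM in wild-type cells (4.63 ± 0.61, adjusted p = 0.000351).

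In the colon, Il6ra-/- cells were compared with the wild-type cells transferred with them. The Il6ra-/- cells lacked the receptor during culture as well, so its absence before and after transfer cannot be told apart here. Ccl3, Ccl4 and Ccl5 were higher in every Il6ra-/- library than in every wild-type library, Ccl1, Ccl20 and Cxcl3 were lower in every Il6ra-/- library, and Xcl1 overlapped. Groups that did not overlap were thus found for 6 of 7 ligands and for 15.8% of all genes (8.6% higher, 7.17% lower). The ligands were chosen with earlier results of these data known, so setting them against all genes is no independent test. In the fit with group as the only factor, 0 of 7 passed in edgeR (3 at an unadjusted p under 0.05, which were Ccl4, Ccl5 and Cxcl3), against 0.155% of all genes, and 1 passed in DESeq2 (Cxcl3), against 0.935%. The median log2 fold change of the 7 was 0.67, against 0.0 over all genes tested. That median is the value of Xcl1 and does not describe the set, as the ligands went both ways. With the replicate number as a block, which sets each Il6ra-/- library against the wild-type library of the same number, Ccl20 and Cxcl3 passed, both lower, against 0.661% of all genes (0.387% lower). The same 2 passed within experiment 2 alone (0.754% of all genes), and Ccl5, Ccl20 and Cxcl3 passed with the colon groups alone (0.857%).

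Cxcl3, the neutrophil attractant, had the largest log2 difference of the 7. It was at 1.10, 2.88 and 2.94 CPM in Il6ra-/- colon cells, against 13.7, 27.2 and 16.5 CPM in wild-type colon cells (means 2.31 ± 1.05 and 19.1 ± 7.11, n = 3 each). The same-number Il6ra-/- over wild-type ratios were 0.0801, 0.106 and 0.178. The log2 fold change was -3.06 ± 0.57 (adjusted p = 0.0822), and with the block -3.09 ± 0.37 (adjusted p = 0.0116). DESeq2 gave an adjusted p of 9.01e-06, and within experiment 2 alone the log2 fold change was -2.91 ± 0.32 (adjusted p = 0.00776). Cxcl2, its close relative, was at 28.5 CPM in Il6ra-/- and 27.9 CPM in wild-type colon cells (0.02 ± 0.82, adjusted p = 1.0). Summed neutrophil markers were 11.1, 114 and 119 CPM in Il6ra-/- colon libraries and 18.6, 122 and 93.8 CPM in wild-type ones, with ranges that overlapped, and their part in the Cxcl3 difference was not tested.

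Ccl20 was low in all colon cells, at 1.91, 1.81 and 2.19 CPM in Il6ra-/- against 7.80, 5.70 and 6.99 CPM in wild-type colon cells. These levels rest on 22 to 33 counts per Il6ra-/- library and 101 to 128 per wild-type library. The same-number ratios were close together at 0.244, 0.318 and 0.313. The log2 fold change was -1.78 ± 0.89 (adjusted p = 1.0), and with the block -1.79 ± 0.19 (adjusted p = 0.0101). The fit without the block draws its spread also from the libraries before transfer, where Ccl20 differed 10.1-fold and 8.43-fold between experiments. With the colon groups alone the value was -1.80 ± 0.27 (adjusted p = 0.0315), and within experiment 2 alone -1.65 ± 0.27 (adjusted p = 0.0434). Summed markers of epithelial cells, which can make Ccl20, were 405, 212 and 185 CPM in Il6ra-/- and 809, 274 and 210 CPM in wild-type colon libraries, and their part in the difference was not tested.

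Ccl1 was at 4.33, 6.92 and 14.5 CPM in Il6ra-/- and 15.7, 15.5 and 15.6 CPM in wild-type colon cells, so that the wild-type libraries were nearly equal and the Il6ra-/- ones ranged widely. The highest Il6ra-/- library came close to the wild-type ones, with same-number ratios of 0.276, 0.447 and 0.928. The log2 fold change was -0.86 ± 0.44 (adjusted p = 1.0; with the block -1.03 ± 0.36, adjusted p = 0.471) and -1.47 without Il6ra-/- colon library 2. With each library left out it ran from -1.47 to -0.54.

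Ccl5, the leading ligand per kilobase, was at 533, 355 and 632 CPM in Il6ra-/- and 202, 228 and 166 CPM in wild-type colon cells (means 507 ± 140 and 199 ± 31.3, n = 3 each). The lowest Il6ra-/- library was 1.55 times its wild-type partner and the highest 3.81 times. The log2 fold change was 1.35 ± 0.58 (adjusted p = 1.0), with the block 1.32 ± 0.30 (adjusted p = 0.149), and within experiment 2 alone 1.33 ± 0.27 (adjusted p = 0.0906). With the colon groups alone it passed (1.34 ± 0.21, adjusted p = 0.0402).

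Ccl4 was at 48.1, 38.0 and 68.9 CPM in Il6ra-/- and 20.2, 27.5 and 19.8 CPM in wild-type colon cells (1.20 ± 0.37, adjusted p = 0.539; with the block 1.17 ± 0.34, adjusted p = 0.298). Ccl3 was at 19.8, 27.3 and 31.0 CPM in Il6ra-/- and 8.44, 17.0 and 16.4 CPM in wild-type colon cells (0.90 ± 0.45, adjusted p = 1.0; with the block 0.94 ± 0.26, adjusted p = 0.269). The same-number Il6ra-/- over wild-type ratios were 1.38 to 3.48 for Ccl4 and 1.61 to 2.34 for Ccl3. Neither passed over all genes in any of these fits. Xcl1 was at 14.3, 17.7 and 48.3 CPM in Il6ra-/- against 8.16, 16.6 and 25.9 CPM in wild-type colon cells (0.67 ± 0.80, adjusted p = 1.0), and the value was -0.07 without Il6ra-/- colon library 2.

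Markers of CD8, NK and gamma-delta T cells summed to 456 to 589 CPM in Il6ra-/- and 258 to 358 CPM in wild-type colon libraries. Of 8 tested, 1 was higher (4 with the block). Of all genes, 0.155% passed in either direction (0.661% with the block). Of the 9 listed markers in the files, 5 were higher in every Il6ra-/- than in every wild-type colon library, against 8.6% of all genes tested. Their means were 69.1 CPM in Il6ra-/- against 20.6 CPM in wild-type cells for Klrd1, 49.3 against 15.4 for Klrk1, 48.7 against 14.2 for Cd8a, 205 against 110 for Tcrg-C2 and 56.9 against 14.5 for Tcrg-C4. The other 4 overlapped, with Il6ra-/- means of 8.71 against 3.73 CPM in wild-type cells for Cd8b1, 9.28 against 11.1 for Klrb1c, 85.9 against 111 for Tcrg-C1, and 0.244 against 0.131 for Ncr1, the defining NK marker. CD8, NK and gamma-delta T cells make Ccl3, Ccl4, Ccl5 and Xcl1, and activated CD4 T cells can carry some of these markers. The colon gate was CD4+ TCRb+, and how far it left out other cells was not measured. The part of such cells in the higher ligands was not tested. Of the myeloid, neutrophil and epithelial lists, 0 markers passed between the genotypes in edgeR, where few genes passed at all. Their median log2 fold changes were -0.05, 0.01 and -0.98. Summed myeloid markers were 138, 535 and 424 CPM in Il6ra-/- and 185, 554 and 390 CPM in wild-type colon libraries.

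**Figure D3:**
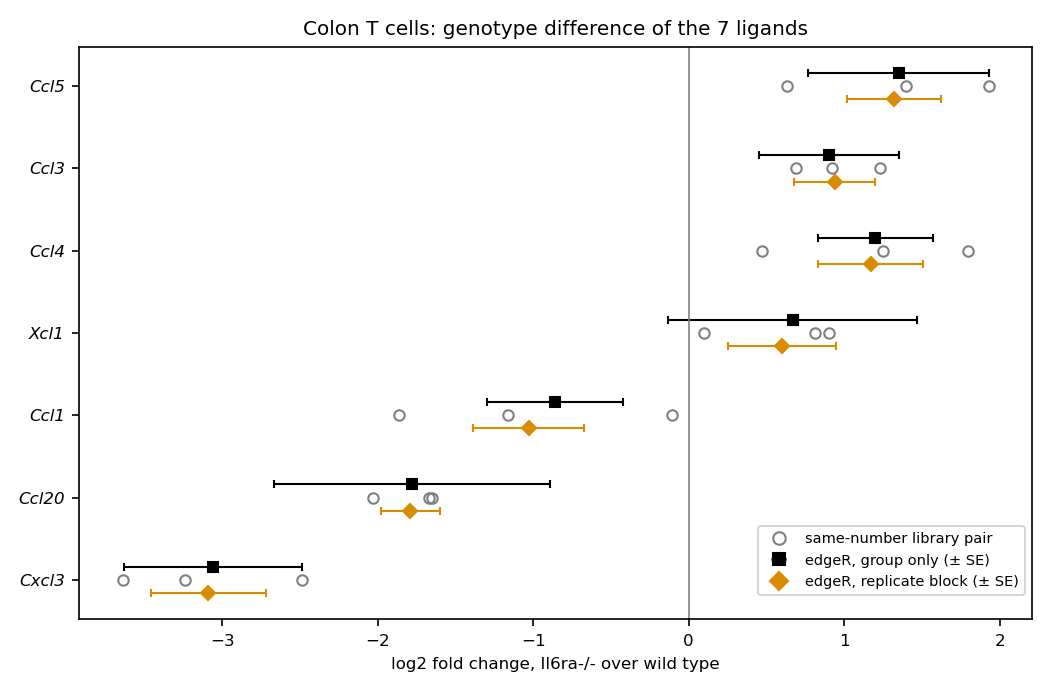
Log2 fold change of each ligand in Il6ra-/- over wild-type colon cells. Black squares are edgeR with group as the only factor and orange diamonds edgeR with the replicate number as a block (bars, ± SE); grey circles are the 3 pairs of libraries of the same number. Ccl20 and Cxcl3 lie left of 0 with all pairs (block -1.79 ± 0.19 and -3.09 ± 0.37), and Ccl3, Ccl4 and Ccl5 right of 0 with all pairs. For these ligands the genotypes did not overlap, so any pairing of libraries would put the circles on the same side.

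Among the 6 receptors tested, only Ccr6 had groups that did not overlap between the colon genotypes. Of all genes, 15.8% did not overlap (7.17% lower), so 1 of 6 is near that share. Ccr6, the receptor of Ccl20, was at 26.2, 8.07 and 11.5 CPM in Il6ra-/- and 127, 40.3 and 68.6 CPM in wild-type colon cells (-2.36 ± 0.70, adjusted p = 0.482; with the block -2.39 ± 0.42, adjusted p = 0.0532). It did not pass, and 0 of 6 receptors did (1 at an unadjusted p under 0.05, Ccr6). Ccr8 (39.3 ± 10.6 CPM in Il6ra-/- and 42.4 ± 7.55 CPM in wild-type colon cells), Ccr1 (16.3 ± 1.25 in Il6ra-/-, 18 ± 4.99 in wild type), Ccr3 (2.42 ± 1.47 in Il6ra-/-, 1.78 ± 0.709 in wild type), Ccrl2 (18.5 ± 9.06 in Il6ra-/-, 15.2 ± 7.46 in wild type) and Cxcr2 (3.28 ± 2.36 in Il6ra-/-, 3.62 ± 1.95 in wild type) overlapped between the genotypes. Xcr1 (0.262 CPM in Il6ra-/- and 0.392 CPM in wild-type cells), Ackr1 (0.151 CPM in Il6ra-/- and 0.313 CPM in wild-type cells) and Ackr2 (no count) were too low to test.

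**Figure D4:**
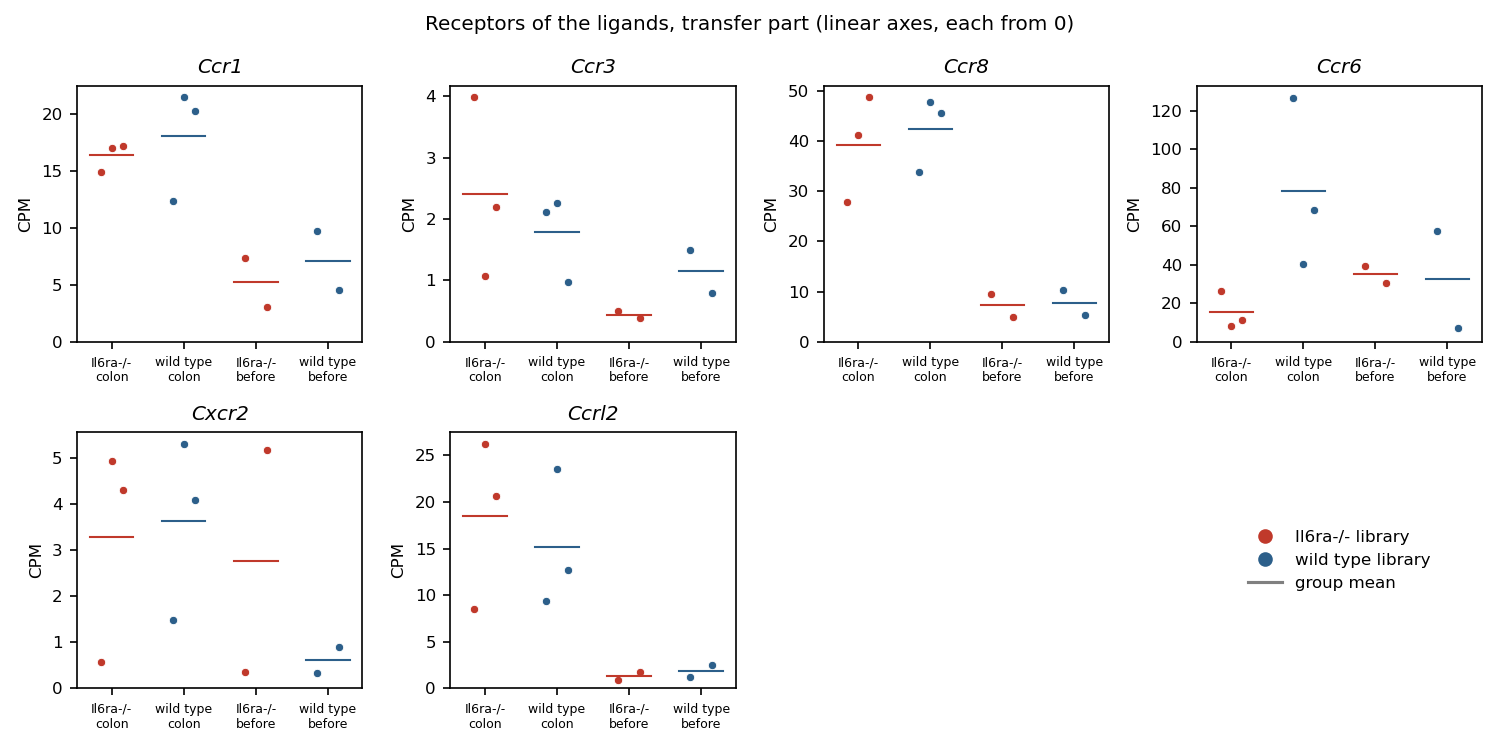
CPM of 6 receptor genes in each library of the transfer part, on linear axes from 0, with Il6ra-/- libraries in red, wild-type libraries in blue and the group mean as a line. In the colon Ccr6 lies between 8.07 and 26.2 CPM in Il6ra-/- libraries, below all wild-type ones.

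Of the other ligands and regulators, 0 of 14 and 0 of 23 passed between colon genotypes in edgeR (0 and 2 at an unadjusted p under 0.05). With the block, 1 of 23 regulators passed, against 0.661% of all genes. This was Hopx, which was higher (170 CPM in Il6ra-/- against 73.6 CPM in wild-type cells, 1.21 ± 0.16, adjusted p = 0.0166). Tbx21 was at 151 CPM in Il6ra-/- and 85.3 CPM in wild-type cells (with the block 0.82 ± 0.17, adjusted p = 0.115). The other regulators listed with them for Th1 and cytotoxic cells did not share this direction as a set. Eomes was at 20.7 CPM in Il6ra-/- and 41.4 CPM in wild-type cells, Prdm1 at 83.7 and 87.0, and Runx3 at 286 and 267.

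Across libraries, the genes whose log2 CPM followed each ligand most closely in both parts (10 libraries each, 8899 candidate genes, ranked by the smaller of the 2 Pearson correlations) differed from ligand to ligand. Ccl20 was followed by Cd24a, Ext1 and Stx11 (smaller r of 0.981, 0.979 and 0.977), Xcl1 by Letm1, Nek6 and Ryk (0.973, 0.966 and 0.963) and Ccl1 by Cd82, Acsbg1 and Cxcr3 (0.974, 0.973 and 0.968). Correlations were lower for Ccl4 with Def8, Nif3l1 and Magohb (0.882, 0.875 and 0.848), Ccl3 with Ccdc25 and Hira (0.864 and 0.850), Ccl5 with Myo1f, Tbx21 and Ubxn8 (0.857, 0.845 and 0.816) and Cxcl3 with Slc35a1, Ccsap and Pkp4 (0.851, 0.851 and 0.844). Among the ligands themselves, Ccl3 and Ccl4 moved together in both parts (0.87 and 0.93), while Ccl5 and Ccl20 had a correlation of -0.96 across transfer libraries and 0.62 across culture libraries. The libraries fall into groups of colon and pre-transfer, or cultured and naive cells, and the correlations take in the differences between those groups.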

How the data were processed

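The measurements are RNA-seq libraries of mouse CD4 T cells, 10 in each of 2 parts. Per the labels, the transfer part used a stranded mRNA kit. The authors deposited raw read counts per gene as whole numbers. HTSeq 0.7.2, STAR 2.5.3, SAMtools 0.1.18, R 3.4.3 and DESeq2 1.18.1, on GRCm38 (mm10), are named per the submitters' processing notes. Strand setting and annotation release are not given in the sources used here. From each table, 5 summary lines below the 39179 gene IDs were left out. Reads in no gene were 18.1% to 31.9% of unique reads, and this share does not enter CPM. Symbols, positions and exon lengths came from GENCODE M21, which named 37607 IDs, and promoter sequences came from RefSeq.

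edgeR 4.0.16 (R 4.3.3) was run on each part alone (quasi-likelihood F test, TMM, filter by expression per group, group as the only factor), leaving 14225 and 14926 genes. Benjamini-Hochberg adjusted p under 0.05 over all genes passed. There were 12 comparisons. A count of 0 was taken to allow 3 counts, and intervals cover counting error only. The tests were tested on simulated data first. The ligands, gene lists, markers and motifs were chosen with earlier results of these data known. Named genes are the 7 ligands, their receptors, and listed ligands and regulators past the threshold, at most 4 per list and comparison, with 3 most-alike genes per ligand. Some genes that this rule or the lists would hold, and a motif searched, are not reported here, and the genes stay out of the list counts. Other genes (Cxcl2, Tbx21 and single markers in the colon) were named after their values were seen. Per the labels, transfer libraries numbered 0 are of experiment 1 and those numbered 1 and 2 of experiment 2. Deviations of same-numbered libraries correlated at 0.58, 0.237 and 0.183 in the colon and 0.43 before transfer, so numbers were taken to pair libraries within a stage. The pairing of colon numbers 1 and 2 is assumed. Both are of experiment 2, and libraries of different numbers were not correlated, so these values cannot tell pairing by number from a shared experiment. No replicate pair agreed within sampling noise (mean chi-square per gene 6.72 to 238, where noise alone gives about 1).

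Alternatives were RLE size factors, no filter and a stricter filter on low counts, DESeq2 1.42.0, a fit of only the compared groups, the replicate block, an experiment term, each library left out and 2 doubted wild-type libraries left out (library 1 before transfer, colon library 2). Experiment 2 alone was added after seeing the data.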

Additional observations from a re-analysis of the deposited data

How the results depend on the processing

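Of 393 alternative values of log2 fold changes reported here, 357 kept their direction and their side of the threshold, 17 came to pass, 11 no longer passed and 8 changed sign. Between colon genotypes, the number of ligands that passed was 0 in the reported fit, 1 without a filter on low counts (Cxcl3), 1 in DESeq2 (Cxcl3), 3 with the compared groups only (Ccl5, Ccl20 and Cxcl3), and 2 with the replicate block and with experiment 2 only (Ccl20 and Cxcl3); with each library left out it stayed 0. Before transfer, 2 ligands passed with experiment 2 only (Ccl3 and Ccl4, with 1 library per genotype assumed to vary like the colon libraries). For wild-type colon cells against cells before transfer, 3 passed without both doubted wild-type libraries, and between 3 and 5 with each library left out. For the difference of this change between genotypes, 3 passed with experiment 2 only (Ccl3, Ccl4 and Ccl5), and between 0 and 1 with each library left out. Between cultured genotypes with hyper-IL-6, 1 passed without a filter (Ccl4). The share of all genes that passed was not worked out for the fits without a filter. Nor was it for those without both doubted wild-type libraries or with each library left out. The counts of ligands from all these fits thus have no background beside them. Signs turned for values that did not pass: Xcl1 between colon genotypes (-0.07 to 1.11 with each library left out), Ccl3 in wild-type colon cells over cells before transfer (0.03 with an experiment term, 0.63 with experiment 2 only, -0.33 to 0.38 with each library left out) and Cxcl3 in Il6ra-/- colon cells over cells before transfer (-0.99 to 1.07). With experiment 2 only the last was 1.42 and passed. The cause was not tested. With the replicate block, the change of Ccl4 in Il6ra-/- cells no longer passed (1.34, adjusted p = 0.0637), and Ccl5 rose in Il6ra-/- cells with hyper-IL-6 over naive ones (1.15, adjusted p = 0.0390); across stages (r from -0.143 to 0.0793) the numbers did not pair libraries. In culture the same-number r was from -0.164 to 0.0427 where a cultured group took part and 0.156 between the naive genotypes, and with 2 libraries per group and no shared day in the labels the numbers were not taken to pair libraries. Scaling moved the median of all genes by less than 0.1 on the log2 scale. Depth limits Ccl20 and Cxcl3 in the colon and Ccl1 and Xcl1 before transfer, which rest on few counts.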
